A study of Mus musculus with 18 samples.

Results

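The nonclassical MHC class I genes described here are H2-Q4, H2-Q6, H2-Q7, H2-T22, H2-T23 and H2-M3, taken by symbol from a gene expression table of mouse pancreatic tumor cells. They are 6 of the 24493 genes in that table, and 5 of the 6 reached the mean of 1 TPM required for testing. The 18 libraries came from the tumor lines 6419c5 and 6694c2 (C57BL/6), grown as subcutaneous implants with no treatment, from which tumor cells were sorted and total RNA was taken. Each line was measured as wild type (WT) and as 2 clones labelled as knockouts of Kdm3a, a histone demethylase gene. The 6 groups were thus 6419c5 WT, 6419c5 KO1, 6419c5 KO2, 6694c2 WT, 6694c2 KO1 and 6694c2 KO2, with 3 libraries in each. The 3 libraries of a knockout group share 1 clone, so a clone and its knockout cannot be told apart within a group. The age of the hosts, the marker used in the sort, how the gene was disrupted and whether libraries came from separate animals are not given in the sources used here, so the tests measure only the spread between these libraries, which may be technical. The table letters the clones A and B, which were read as KO1 and KO2, a reading that bears only on the clone names.

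Classical class I molecules such as H2-K and H2-D pair a polymorphic heavy chain with the small subunit encoded by B2m and show peptides to CD8 T cells. Nonclassical heavy chains use the same small subunit but vary little between individuals and have narrower roles. H2-Q6, H2-Q7, H2-Q8 and H2-Q9 encode the Qa-2 antigen, which is often held in the membrane by a lipid anchor, and H2-Q4 encodes the related Qb-1. H2-T23 encodes Qa-1, which carries leader peptides of other class I chains and is read by the NK cell receptor CD94/NKG2A. H2-T22 is recognised by some gamma delta T cells without a peptide, and H2-M3 presents peptides that begin with N-formyl methionine, as bacterial and mitochondrial ones do. Class I promoters commonly carry an interferon-stimulated response element (ISRE) and a composite element bound by the NLRC5 complex, so many of these genes respond to interferon gamma.

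The promoters are shown because the members moved with the classical genes in most clones, although not all of them did in 6419c5 KO2. All 6 members had a promoter window in RefSeq (GRCm38.p6), from 250 bases before to 50 bases after the annotated start. Each stretch below is printed 5′ to 3′ on the strand of its gene. It starts 10 bases before the ISRE-like match and, except in H2-T23, ends with the last CCAAT box match ahead of the start. The H2-T23 stretch was cut to 30 bases because the longer one overlapped an annotated exon. Capitals mark matches, searched on both strands, to CCAAT, to TGACG and to an ISRE in 1 of 2 forms, AGAA or GAAA followed by any 2 bases and GAAA.
H2-Q4, chr17:35379454-35379566, plus strand: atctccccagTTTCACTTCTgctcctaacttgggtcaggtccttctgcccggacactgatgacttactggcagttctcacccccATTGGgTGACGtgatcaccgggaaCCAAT
H2-Q6, chr17:35424688-35424799, plus strand: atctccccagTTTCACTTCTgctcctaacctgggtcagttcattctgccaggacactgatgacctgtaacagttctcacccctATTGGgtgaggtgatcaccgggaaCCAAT
H2-Q7, chr17:35439032-35439143, plus strand: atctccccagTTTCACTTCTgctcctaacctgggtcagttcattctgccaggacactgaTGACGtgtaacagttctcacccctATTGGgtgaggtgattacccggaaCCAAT
H2-T22, chr17:36042801-36042943, minus strand: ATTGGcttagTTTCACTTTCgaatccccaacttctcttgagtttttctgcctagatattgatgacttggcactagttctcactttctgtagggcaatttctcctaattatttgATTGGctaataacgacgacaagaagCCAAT
H2-T23, chr17:36032806-36032835, minus strand: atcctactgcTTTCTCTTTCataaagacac
H2-M3, chr17:37270123-37270217, plus strand: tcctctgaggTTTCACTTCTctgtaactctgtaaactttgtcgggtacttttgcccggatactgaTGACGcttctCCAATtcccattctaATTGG

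The ISRE form that begins with AGAA, read on the opposite strand, was found in H2-Q4, H2-Q6, H2-Q7 and H2-M3, as it was in H2-K1 and H2-D1. The form that begins with GAAA was found in H2-T22 and H2-T23. Of all 32851 promoter windows of that length, 3.02% held the form with AGAA, 3.44% the form with GAAA, 37.4% CCAAT and 20.8% TGACG. Every member therefore had an ISRE-like match and a CCAAT match, the first rare and the second common among promoters. The ISRE-like match stood at base -153 from the RefSeq start in H2-Q4, -152 in H2-Q6, -113 in H2-Q7, -191 in H2-T22, -124 in H2-T23 and -101 in H2-M3. In H2-T23 the printed stretch lies inside the GENCODE span of the gene (36029773 to 36032855). Its match is therefore upstream of the RefSeq start but not of the GENCODE start. TGACG was found in H2-Q4, H2-Q7, H2-T22 and H2-M3. The gamma-activated sequence TTCNNNGAA, in 8.30% of windows, was found in H2-M3 among the members. The NF-kB half-sites GGG and CCC with 4 bases between them, in 11.9% of windows, were found in H2-Q4, H2-Q6 and H2-Q7. None of the printed ISRE, CCAAT and TGACG matches overlapped one another. A match describes letters only and is neither a bound site nor a cause.

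H2-Q6 and H2-Q7, both genes of Qa-2, are close copies in their coding sequence, and reads from identical stretches cannot tell them apart. Over whole main transcripts they were less alike. H2-Q6 shared 18.4% of its 31-base windows with H2-Q7, and H2-Q7 shared 25.8% with H2-Q6. Their coding sequences (GENCODE M21, GRCm38) were 95.4% identical, with 45 mismatches over 978 aligned bases and a longest identical run of 265 bases. The 90 coding bases where they differ most, coding bases 66 to 155, held 13 mismatches. They are shown because such stretches separate the copies within the coding sequence. Capitals mark the mismatches.
H2-Q6, chr17:35425109-35425198, plus strand: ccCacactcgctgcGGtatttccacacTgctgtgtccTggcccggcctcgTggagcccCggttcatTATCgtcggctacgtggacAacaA
H2-Q7, chr17:35439453-35439542, plus strand: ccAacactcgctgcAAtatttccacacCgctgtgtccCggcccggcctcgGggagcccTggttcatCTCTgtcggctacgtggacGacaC

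H2-Q5, a Q gene outside the 6, was closer still to H2-Q7, at 97% identity with 30 mismatches. H2-T22 was 96.9% identical to H2-T10, with 35 mismatches over 1134 aligned bases. H2-Q4 was 90.7% identical to the classical H2-K1, and 90.2% and 90.8% identical to H2-Q6 and H2-Q7. H2-M3 stood furthest from the other members, at 71.4% to 74.3%. Of the 31-base windows of its main transcript, 95.4% in H2-M3 were found in no other gene. That share was 50.7% in H2-T23, 48.2% in H2-Q6, 47.4% in H2-Q7, 41.6% in H2-Q4 and 36.7% in H2-T22, which shared 55.8% of its windows with H2-T10. H2-Q6 shared most with H2-Q4, at 24.6% of its windows, and H2-Q7 with H2-Q5, at 31.8%. The transcripts of H2-Q8, H2-Q9 and H2-T9 were not used here, so these shares are upper limits. The rows of H2-M3 thus rested on the most distinctive sequence, and the split of reads among the Qa-2 rows, and between H2-T22 and its copies, is uncertain.

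All 6 genes are annotated as protein coding on chromosome 17 (GRCm38). H2-Q4 spans 35379617 to 35385290, H2-Q6 35424850 to 35430055, H2-Q7 35439155 to 35443773 and H2-M3 37270220 to 37274484, all on the plus strand. H2-T23 spans 36029773 to 36032855 and H2-T22 36037128 to 36042747 on the minus strand. Both T genes overlap the antisense gene A930015D03Rik, which was listed at 0 to 2.58 TPM (a read share scaled by transcript length). H2-Q4 overlaps the antisense gene Gm11131, which has no row in the table. Whether quantification used strand is not given in the sources used here.

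Across the series, libraries of a group correlated at r = 0.932 to 0.989 over the tested genes, and libraries of different groups at 0.797 to 0.974. The keratin genes Krt8 (1932 to 4500 TPM) and Krt18 (2141 to 3204 TPM), which mark epithelial tumor cells, were high in every library. Of the 8 epithelial markers listed, 4 were called lower for the mean of the clones in each line and none higher. Epcam averaged 249 TPM in 6419c5 WT, 146 in KO1 and 26.8 in KO2, and 25.0 TPM in 6694c2 WT, 4.64 in KO1 and 0.896 in KO2. Krt7 averaged 1164 TPM in 6419c5 WT, 832 in KO1 and 372 in KO2, and 163 TPM in 6694c2 WT, 62.4 in KO1 and 57.1 in KO2. Kdm3a mRNA was present in every library, at 24.1 to 38.2 TPM in 6419c5 WT, 21.6 to 24.6 in KO1 and 12.3 to 18.8 in KO2, and at 38.9 to 67.6 TPM in 6694c2 WT, 26.2 to 29.8 in KO1 and 25.2 to 30.2 in KO2. It was called lower in 3 of the 4 clones but not in 6419c5 KO1 (log2 change -0.45, limma adjusted p = 0.299). A disrupted gene can still give transcripts, so a gene sum of this kind checks the labels only in part. Macrophage genes were present in all groups: the index of 10 such genes (mean log2(TPM + 1)) was 5.53, 6.32 and 8.15 in 6419c5 WT, 6.50, 8.42 and 8.01 in KO1, and 3.63, 3.32 and 4.11 in KO2. In 6694c2 it was 4.50, 6.03 and 2.98 in WT, 7.55, 6.96 and 7.08 in KO1, and 4.03, 4.08 and 6.90 in KO2. Summed fibroblast markers reached 971 TPM in 6419c5 KO1 and 981 TPM in 6694c2 KO1, against 574 and 256 TPM at most in the WT of these lines. They ran from 105 to 832 TPM in 6694c2 KO2 and from 254 to 282 TPM in 6419c5 KO2. The summed neutrophil markers were 82.4 to 217 TPM in 6694c2 KO1 and at most 45.8 TPM elsewhere, while B cell markers summed to at most 12.4 TPM. T and NK cell markers summed to 2.89 to 7.54 TPM over the 6419c5 groups, and to 2.48 to 3.72 TPM in 6694c2 WT, 22.7 to 35.2 in KO1 and 8.43 to 17.8 in KO2. The 3 libraries that stood apart from their groups were 6419c5 WT replicate 3 and 6694c2 KO2 replicate 3, with the highest macrophage index of their groups, and 6694c2 KO1 replicate 1, with endothelial markers summing to 139 TPM against at most 19.3 TPM in the other 17 libraries. In bulk RNA of this kind, fewer cells of a type and less RNA per cell cannot be told apart.

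Levels are given in TPM, which scale reads by transcript length and library total, so members can be set against each other. The depth of the libraries is unknown. H2-T23 and H2-Q4 were the most abundant members, H2-T22, H2-Q7 and H2-M3 were intermediate, and H2-Q6 was near 0.

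H2-Q4, the Qb-1 gene, was listed at 61.4, 51.0 and 48.3 TPM in 6419c5 WT, 349, 393 and 410 in KO1, and 114, 102 and 160 in KO2. Its levels in 6694c2 were 24.8, 48.5 and 25.1 TPM in WT, 324, 301 and 319 in KO1, and 335, 346 and 408 in KO2. Every knockout library was above every WT library of its line. In order of mean level, 6694c2 WT (32.8 ± 13.6 TPM, SD, n = 3) and 6419c5 WT (53.6 ± 6.91) overlapped, 6419c5 KO2 (125 ± 30.8) stood apart above them, and 6694c2 KO1 (314 ± 11.7), 6694c2 KO2 (363 ± 39.1) and 6419c5 KO1 (384 ± 31.3) were highest, the last 2 overlapping.

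H2-Q7, which encodes a Qa-2 heavy chain, separated the groups most sharply. It was listed at 3.19, 1.84 and 3.16 TPM in 6419c5 WT, 37.7, 39.2 and 58.5 in KO1, and 1.06, 1.13 and 2.36 in KO2. The 6694c2 libraries had 2.39, 1.66 and 2.06 TPM in WT, 79.2, 68.0 and 73.4 in KO1, and 55.7, 55.5 and 79.9 in KO2. The knockout clone 6419c5 KO2 thus lay with both WT groups, whose ranges overlapped it in turn, and the other 3 clones formed a second set of overlapping ranges more than 10 times higher. No library fell between 3.19 and 37.7 TPM.

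H2-Q6 was listed at 0 in 14 of 18 libraries. The exceptions were 1.15 TPM in 6419c5 WT replicate 1, 4.08 and 2.41 TPM in 6419c5 KO2 replicates 1 and 2, and 2.03 TPM in 6694c2 WT replicate 2. Its mean of 0.537 TPM was below the minimum of 1 TPM, and it was the member not tested. All 9 libraries of the 3 clones with high H2-Q7 listed H2-Q6 at 0.

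H2-T22, the ligand of some gamma delta T cells, was listed at 24.1, 20.7 and 17.5 TPM in 6419c5 WT, 61.0, 52.1 and 47.9 in KO1, and 43.6, 29.7 and 39.4 in KO2. In 6694c2 the levels were 17.1, 14.4 and 12.2 TPM in WT, 60.2, 50.6 and 43.1 in KO1, and 58.0, 61.1 and 63.2 in KO2. The WT groups did not overlap each other or any clone, and the 4 clones ran into one another.

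H2-T23, the Qa-1 gene, was listed at 88.2, 101 and 134 TPM in 6419c5 WT, 249, 407 and 375 in KO1, and 201, 181 and 228 in KO2. Levels in 6694c2 were 101, 104 and 75.3 TPM in WT, 271, 261 and 263 in KO1, and 270, 277 and 321 in KO2. The 2 WT groups overlapped, 6419c5 KO2 lay between WT and the rest, and the other 3 clones overlapped as neighbours.

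H2-M3, the presenter of N-formyl peptides, was listed at 13.4, 11.4 and 23.3 TPM in 6419c5 WT, 37.7, 58.8 and 49.6 in KO1, and 21.7, 23.5 and 27.8 in KO2. In 6694c2 it was listed at 7.39, 9.71 and 5.13 TPM in WT, 29.8, 26.4 and 28.4 in KO1, and 24.9, 28.1 and 34.2 in KO2. The highest 6419c5 WT library, replicate 3, reached into the range of KO2. The lowest level was that of 6694c2 WT and the highest that of 6419c5 KO1, neither overlapping its neighbour.

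**Figure D1:**
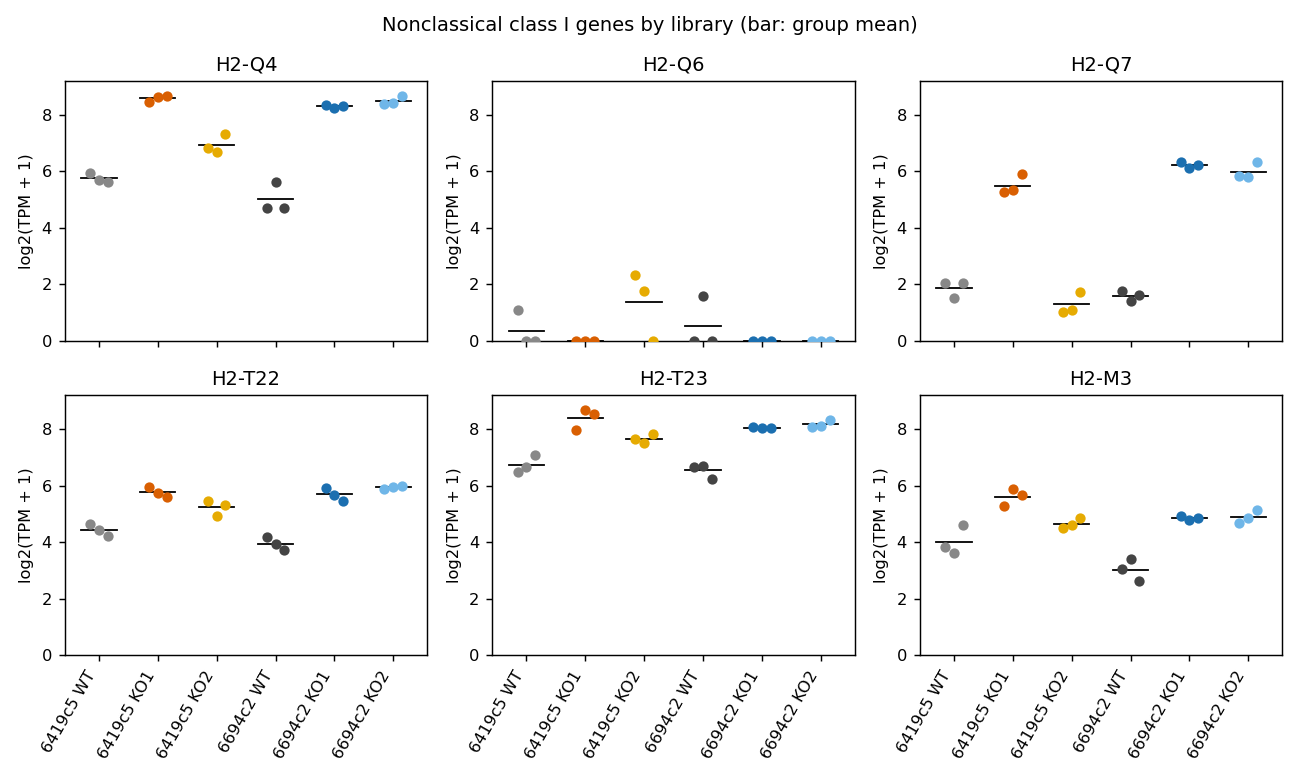
Each panel plots 1 member as log2(TPM + 1) on the same vertical scale, with 1 point per library, 3 libraries per group on the horizontal axis and a bar at the group mean. H2-Q7 in 6419c5 KO2 lies at the WT level, while H2-Q4 and H2-T23 in that clone lie between WT and the other 3 clones. The H2-T22 mean of that clone also lies between them, but its points overlap those of 6694c2 KO1. H2-Q6 is at 0 in 14 libraries.

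The first comparison asked how knockout and WT cells differ in each line, with the mean of the 2 clones set against WT. In 6694c2 all 5 tested members were higher in the knockouts, H2-Q7 by 4.51 and H2-Q4 by 3.39 on the log2(TPM + 1) scale. In 6419c5 all 5 were higher as well, by smaller amounts that ran from 1.07 in H2-T22 to 2.01 in H2-Q4. Values come from limma across 13422 genes with Benjamini-Hochberg adjustment, and a gene was called at an adjusted p under 0.05. The scale understates the change of low genes such as H2-Q7.

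In 6419c5, where 3.97% of the 13422 tested genes were called higher and 7.38% in either direction, 5 of the 5 tested members were called higher. H2-Q4 rose by 2.01 (SE 0.18, limma adjusted p = 6.27e-06) and H2-Q7 by 1.52 (SE 0.20, limma adjusted p = 1.55e-04). H2-T23 rose by 1.29 (SE 0.16, limma adjusted p = 1.08e-04), H2-M3 by 1.11 (SE 0.21, limma adjusted p = 0.00384) and H2-T22 by 1.07 (SE 0.14, limma adjusted p = 2.13e-04). The median over the 5 was 1.29, against 0.01 over all tested genes. The mean of the clones hides a split, since for H2-Q7 it averages a clone far above WT and a clone at the WT level.

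In 6694c2, where 14.7% of tested genes were called higher and 20.4% in either direction, 5 of 5 were again called higher. H2-Q7 rose by 4.51 (SE 0.20, limma adjusted p = 1.19e-09), H2-Q4 by 3.39 (SE 0.18, limma adjusted p = 8.90e-09) and H2-T22 by 1.87 (SE 0.14, limma adjusted p = 3.07e-07). H2-M3 rose by 1.85 (SE 0.21, limma adjusted p = 2.17e-05) and H2-T23 by 1.57 (SE 0.16, limma adjusted p = 6.47e-06). The median over the 5 was 1.87, against 0.15 over all tested genes. Median-of-ratios scaling moved that last value to -0.03, and all 5 members were still called higher. Relative to the classical chains the members did not move as 1 block, as the ratios further on show.

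Without the 3 libraries that stood apart, all 5 members were called higher in both lines, with changes of 0.96 to 1.94 in 6419c5 and 1.52 to 4.40 in 6694c2. With the macrophage index as a covariate all 5 were also called, at 1.07 to 2.13 in 6419c5 and 1.29 to 4.37 in 6694c2.

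The second comparison took each clone by itself against the WT of its line, since the clones are separate cell populations. In 6419c5 KO1 the members rose by 1.33 to 3.62, and in both 6694c2 clones by 1.51 to 4.62. In 6419c5 KO2 H2-Q4, H2-T22 and H2-T23 rose by about 1, and H2-Q7 did not rise.

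In 6419c5 KO1, where 3.14% of tested genes were called higher, 5 of 5 members were called higher beside 4.79% of genes in either direction. H2-Q7 rose by 3.62 (SE 0.23, limma adjusted p = 1.56e-07), H2-Q4 by 2.82 (limma adjusted p = 8.40e-07), H2-T23 by 1.66 (limma adjusted p = 4.85e-05), H2-M3 by 1.58 (limma adjusted p = 9.14e-04) and H2-T22 by 1.33 (limma adjusted p = 1.52e-04). As ratios of mean TPM, H2-Q7 was 16.5 times and H2-Q4 7.17 times its WT level.

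In 6419c5 KO2, where 7.97% of tested genes were called higher, 11% lower and 18.9% in either direction, 3 of 5 members were called higher and none lower. H2-Q4 rose by 1.19 (SE 0.21, limma adjusted p = 0.00146), H2-T23 by 0.93 (SE 0.18, limma adjusted p = 0.00308) and H2-T22 by 0.82 (SE 0.17, limma adjusted p = 0.00343). H2-M3 stood at 0.63 (95% interval 0.11 to 1.15, limma adjusted p = 0.0889), and without 6419c5 WT replicate 3 it stood at 0.92 and was called (limma adjusted p = 0.0151). H2-Q7 stood at -0.58 (95% interval -1.07 to -0.10, limma adjusted p = 0.0867). It was called lower under 4 of the 29 alternatives tried, among them without 6419c5 WT replicate 2 (-0.77, limma adjusted p = 0.0423), without 6419c5 KO2 replicate 3 (-0.81, limma adjusted p = 0.0294) and with a pseudocount of 0.1 (-0.86, limma adjusted p = 0.0498). Over the 29, the H2-Q7 change in this clone ranged from -0.86 to -0.32 and was never above 0. At these levels of 1.06 to 3.19 TPM the split among copies weighs on the value.

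All 10 genes of the macrophage index were called lower in 6419c5 KO2, and its 3 index values (3.32 to 4.11) were below all 3 of WT (5.53 to 8.15). The part of macrophage RNA in the changes of the members in this clone was not tested. Of the 8 epithelial markers 4 were also called lower in this clone, and their part in the result was not tested. With the index as a covariate H2-M3 stood at 1.34 and was called (limma adjusted p = 3.20e-04). H2-Q4 stood at 1.56, H2-T23 at 1.45 and H2-T22 at 0.79, all called, and H2-Q7 stood at -0.32 (limma adjusted p = 0.478). The index values of this clone and its WT did not overlap, so index and clone cannot be told apart in this comparison.

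In 6694c2 KO1, where 14.7% of tested genes were called higher and 21.7% in either direction, 5 of 5 members were called higher, with H2-Q7 at 4.62 (SE 0.23, limma adjusted p = 1.30e-08), H2-Q4 at 3.29, H2-M3 at 1.83, H2-T22 at 1.75 and H2-T23 at 1.51. In 6694c2 KO2, where 10.6% were called higher and 14.5% in either direction, 5 of 5 were also called, with H2-Q7 at 4.40 (SE 0.23, limma adjusted p = 6.50e-09), H2-Q4 at 3.49, H2-T22 at 2.0, H2-M3 at 1.86 and H2-T23 at 1.63. Of the 10 macrophage genes 8 were called higher in KO1, whose index values lay above all of WT, and in KO2 limma called none, with each 95% interval holding 0. Of 5 tested T and NK cell markers 4 were called higher in KO1 and 2 in KO2, of 5 neutrophil markers 4 and 1, and of 8 fibroblast markers 7 and 0, and their part in these results was not tested. Of the 8 epithelial markers 4 were called lower in KO1 and 3 in KO2. KO2 replicates 1 and 2 had index values of 4.03 and 4.08, inside the WT range of 2.98 to 6.03, and replicate 3 had 6.90. H2-Q4 was at 335, 346 and 408 TPM in these libraries, against at most 48.5 TPM in WT. The part of macrophage RNA in these levels was not tested.

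**Figure D2:**
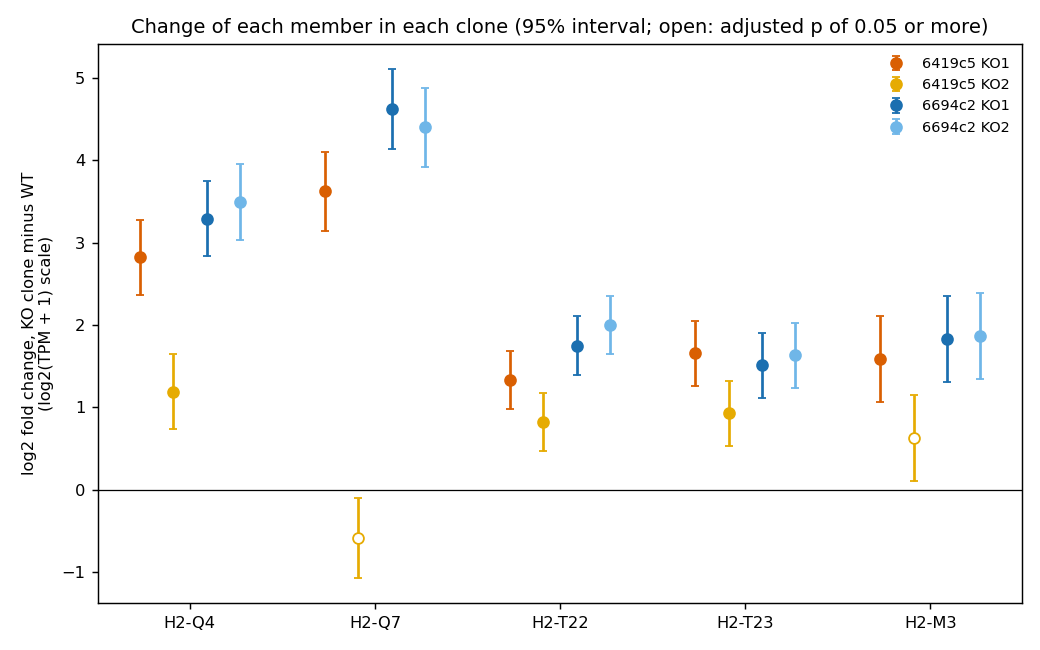
For each of the 5 tested members the vertical axis gives the log2 fold change of a knockout clone minus the WT of its line on the log2(TPM + 1) scale, with 95% intervals from limma and open points where the adjusted p was 0.05 or more. 6419c5 KO2 has the lowest change for every member, and its interval for H2-Q7 (-1.07 to -0.10) lies below those of the other 3 clones.

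**Figure D3:**
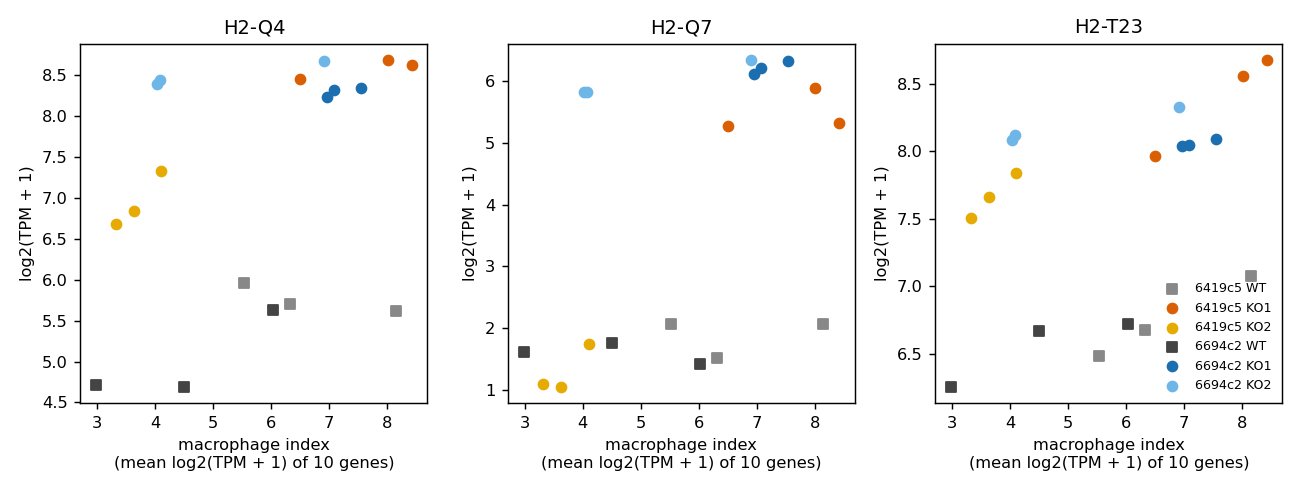
Each point is a library, placed by its macrophage index (horizontal, mean log2(TPM + 1) of 10 genes) and by the log2(TPM + 1) of H2-Q4, H2-Q7 or H2-T23 (vertical, with its own scale in each panel); squares are WT and circles knockout clones. Knockout libraries with an index near 4 have H2-Q4 and H2-T23 above every WT library, including WT libraries with an index of 6 or more. For H2-Q7 these libraries split. Those of 6419c5 KO2 lie at 1.06 to 2.36 TPM, at the WT level, and 6694c2 KO2 replicates 1 and 2 at 55.7 and 55.5 TPM. The part of macrophage RNA was not tested.

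Set directly against each other, the clones of 6419c5 differed and those of 6694c2 did not show a called difference. In 6419c5, where 18.9% of tested genes were called lower in KO2 than in KO1 and 26.3% in either direction, 5 of 5 members were lower in KO2. H2-Q7 was lower by 4.21 (log2 change -4.21, 95% interval -4.69 to -3.73, limma adjusted p = 4.37e-08), and H2-Q4 stood at -1.63 (limma adjusted p = 1.05e-04), H2-M3 at -0.96 (limma adjusted p = 0.00951), H2-T23 at -0.73 (limma adjusted p = 0.00893) and H2-T22 at -0.51 (limma adjusted p = 0.0328). The calls of H2-Q4 and H2-Q7 held under all 29 alternatives. Without 6419c5 KO1 replicate 2 the other 3 members were no longer called, and the H2-T22 call was lost under 9 of the 29. With the macrophage index as a covariate H2-M3 stood at -0.01, H2-T23 at -0.03 and H2-T22 at -0.54 (limma adjusted p = 0.198), none called, while all 10 macrophage genes were lower in KO2 than in KO1. The index values of these clones did not overlap, so index and clone cannot be told apart in this comparison.

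In 6694c2, where 9.53% of tested genes were called in either direction between KO2 and KO1, none of 5 members was called by limma and each 95% interval held 0. The differences were -0.22 for H2-Q7 (95% interval -0.70 to 0.26), 0.03 for H2-M3 (-0.49 to 0.55), 0.12 for H2-T23 (-0.27 to 0.51), 0.20 for H2-Q4 (-0.25 to 0.66) and 0.25 for H2-T22 (-0.10 to 0.61). With the macrophage index as a covariate, higher in KO1 (6.96 to 7.55) than in KO2 (4.03, 4.08 and 6.90), H2-T23 stood at 0.51 and was called (limma adjusted p = 0.0472).

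The third comparison asked whether the knockout effect differed between lines, by the interaction term of the same fit. H2-Q7 differed most, by 2.99 (95% interval 2.40 to 3.58, limma adjusted p = 1.58e-05), with the larger rise in 6694c2. H2-Q4 differed by 1.39 (0.83 to 1.94, limma adjusted p = 0.00461) and H2-T22 by 0.80 (0.37 to 1.23, limma adjusted p = 0.0240). H2-M3 (0.74, 0.10 to 1.38, limma adjusted p = 0.140) and H2-T23 (0.28, -0.20 to 0.76, limma adjusted p = 0.484) were not called. Thus 3 of 5 members were called, beside 5.78% of tested genes in that direction and 8.71% in either. The H2-T22 call was lost under median-of-ratios scaling (0.62, limma adjusted p = 0.111), under quantile normalization (0.63, limma adjusted p = 0.121), without the 20 most abundant genes (0.72, limma adjusted p = 0.0507), and without 6419c5 WT replicate 1 (0.69), 6694c2 WT replicate 2 (0.80) or 6694c2 WT replicate 3 (0.69). Each line effect is the mean of 2 clones, and the low values of 6419c5 KO2 enter the 6419c5 mean.

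The WT cells of the lines also differed. H2-M3 (-0.99, limma adjusted p = 0.00380), H2-Q4 (-0.75, limma adjusted p = 0.00966) and H2-T22 (-0.49, limma adjusted p = 0.0255) were called lower in 6694c2 WT than in 6419c5 WT. H2-Q7 (-0.28, limma adjusted p = 0.332) and H2-T23 (-0.19, limma adjusted p = 0.413) were not. These are 3 of 5, beside 32.2% of tested genes called lower and 46.3% in either direction, and against a median of -0.22 over all tested genes. Median-of-ratios scaling moved that median to -0.02, and there H2-Q4 (-0.53, limma adjusted p = 0.0924) and H2-T22 (-0.28, limma adjusted p = 0.265) were no longer called. H2-T23 turned to 0.03 under that scaling and H2-Q7 to 0.17 under quantile normalization, and H2-M3 was called lower under all 28 alternatives.

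The Qa-2 rows were then read together, because reads of near copies can be moved between rows. H2-Q8 and H2-Q9 are rows of the table outside the 6 members. H2-Q8 was listed at 93.5, 87.3 and 106 TPM in 6419c5 KO1, at 53.6, 27.5 and 27.7 in 6694c2 KO1 and at 34.1, 39.7 and 53.2 in 6694c2 KO2. In the 9 remaining libraries it was listed at 0 to 7.04 TPM. The libraries with H2-Q6 at 0 and H2-Q7 high were thus those with H2-Q8 high.

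The sum of H2-Q6, H2-Q7, H2-Q8 and H2-Q9 depends less than a single row on how reads were split among them. TPM are scaled by transcript length, which differs between the copies, so the split still moves the sum, and H2-Q5 is outside it. The sum was 4.98, 7.11 and 8.52 TPM in 6419c5 WT, 146, 146 and 190 in KO1, and 5.14, 4.66 and 10.4 in KO2. In 6694c2 it was 3.79, 5.05 and 6.62 TPM in WT, 173, 123 and 131 in KO1, and 116, 117 and 172 in KO2. The same 3 clones were high in the sum as in H2-Q7 alone, and 6419c5 KO2 overlapped its WT.

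Added to the fit in place of its parts, the sum rose by 4.38 in 6419c5 KO1 (SE 0.27, limma adjusted p = 1.45e-07), by 4.55 in 6694c2 KO1 (limma adjusted p = 5.27e-08) and by 4.47 in 6694c2 KO2 (limma adjusted p = 3.38e-08). In 6419c5 KO2 it stood at -0.07 (95% interval -0.65 to 0.50, limma adjusted p = 0.903), an interval that excludes a rise as large as the 1.19 of H2-Q4 in that clone. H2-Q7 plus H2-Q9 stood at -0.83 there (limma adjusted p = 0.0429) and H2-Q6 plus H2-Q8 at 0.74 (limma adjusted p = 0.169), so the pairs of rows had opposite signs. The former was no longer called in 10 of the 18 runs that left out a single library, among them 6419c5 WT replicate 3 (-0.60, limma adjusted p = 0.183). Its call was also lost with no filter on low values, under quantile normalization and with the macrophage index as a covariate. The same held without the 3 libraries that stood apart and in a fit of 6419c5 alone. H2-Q6 made up 79.4%, 68.1% and 0% of H2-Q6 plus H2-Q7 in the 3 libraries of this clone, and 0% in all but 2 of the other 15, 6419c5 WT replicate 1 and 6694c2 WT replicate 2.

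**Figure D4:**
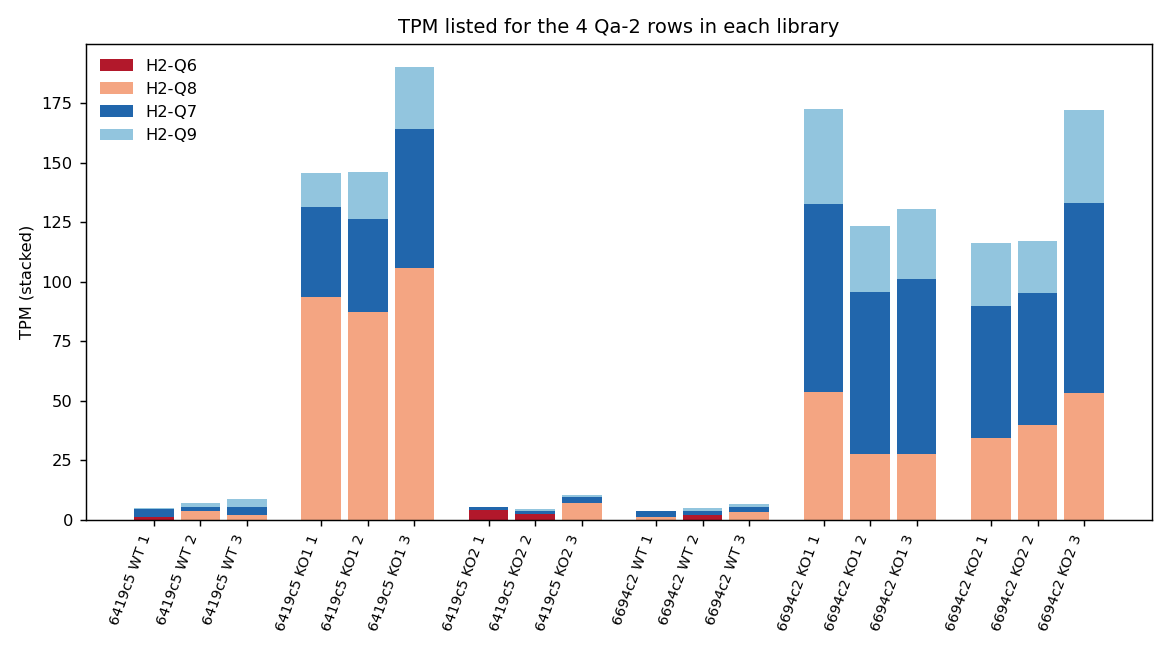
Stacked bars give the TPM listed for H2-Q6, H2-Q8, H2-Q7 and H2-Q9 in each of the 18 libraries on a linear axis from 0. The stacks reach 116 to 190 TPM in the libraries of 6419c5 KO1 and both 6694c2 clones and at most 10.4 TPM in the other 9, and H2-Q8 takes the largest part in 6419c5 KO1 while H2-Q7 does so in both 6694c2 clones.

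For H2-T22 the near copy H2-T10 moved the same way, as did H2-T9, taken as a near copy though its sequence was not compared here. H2-T9 was listed at 42.9 to 51.0 TPM in 6419c5 WT, 136 to 157 in KO1 and 88.8 to 113 in KO2, and at 28.7 to 33.7 TPM in 6694c2 WT, 118 to 128 in KO1 and 119 to 156 in KO2. The sum of H2-T22, H2-T9 and H2-T10 rose by 1.56 in 6419c5 KO1 (limma adjusted p = 3.22e-07) and by 1.0 in 6419c5 KO2 (SE 0.11, limma adjusted p = 1.81e-05). It rose by 1.92 in 6694c2 KO1 (limma adjusted p = 3.35e-08) and by 2.07 in 6694c2 KO2 (limma adjusted p = 6.77e-09). The rise of the H2-T22 row in all 4 clones was therefore present in the sum of the copies too.

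The other H2-Q, H2-T and H2-M class I genes of the list numbered 24, of which 23 had a row, 8 were tested and 11 were never above 0.5 TPM. In 6419c5, 4 of 8 were called higher for the mean of the clones (H2-Q8 2.53, H2-T10 1.47, H2-Q5 1.35 and H2-T9 1.32), with a median of 1.22. The share of all tested genes called higher was 3.97% there and 14.7% in 6694c2. In 6694c2, 8 of 8 were called higher, led by H2-Q8 (4.23), H2-Q9 (4.01), H2-Q5 (3.35) and H2-M2 (2.68), with a median of 2.34. Some of the 8 reached the mean of 1 TPM through the clones where they are high, which fixes their direction: H2-T-ps averaged 0.551 TPM in 6419c5 WT and 0.552 TPM in 6694c2 WT, and H2-M2 0.177 TPM in 6694c2 WT against 8.95 in KO1 and 5.70 in KO2. The count and median of this list are therefore a description and no support. In 6419c5 KO2 the 2 called were H2-T9 (1.04, limma adjusted p = 2.11e-05) and H2-T10 (0.95, limma adjusted p = 2.02e-04). In that clone the Q genes H2-Q5 (0.05, limma adjusted p = 0.924), H2-Q8 (-0.27, limma adjusted p = 0.864) and H2-Q9 (-0.71, limma adjusted p = 0.229) were not called. H2-Q4 was the Q row called higher there, and H2-T9, H2-T10, H2-T22 and H2-T23 the T rows.

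Among the classical genes and those of peptide loading, 12 of 16 were called higher and 1 lower in 6419c5, and 13 higher in 6694c2, with medians of 0.79 and 1.57. Over all tested genes 3.97% and 14.7% were called higher. H2-K1 rose by 1.58 and 2.96, H2-D1 by 1.18 and 2.50 and B2m by 1.29 and 2.75. Psmb9, a subunit of the immunoproteasome that cuts peptides for class I, rose by 1.92 and 4.39, and Psmb8, another such subunit, by 1.72 and 4.11. Tap1, a subunit of the transporter that brings peptides into the endoplasmic reticulum, rose by 1.89 and 3.89, and its partner Tap2 by 1.07 in 6419c5 and 2.88 in 6694c2. The gene called lower in 6419c5 was Calr (-0.27, limma adjusted p = 0.0196), a chaperone. In 6419c5 KO2, 4 of 16 were called higher, beside 7.97% of all tested genes. They were Tap1 (0.92), H2-K1 (0.68), B2m (0.68) and Psme1 (0.39), and H2-D1 stood at 0.48 (limma adjusted p = 0.202).

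Of 20 regulators of class I genes, 5 were called higher in 6419c5 and 9 in 6694c2, with medians of 0.14 and 0.33. The shares over all tested genes were 3.97% and 14.7%. Nlrc5, the transactivator of class I promoters, was listed at 3.14 to 3.76 TPM in 6419c5 WT, 22.2 to 28 in KO1 and 6.53 to 9.05 in KO2, and at 0.872 to 2.09 TPM in 6694c2 WT, 20.3 to 21.9 in KO1 and 28.5 to 30.8 in KO2. It rose by 1.72 in 6419c5 and 3.51 in 6694c2. Irf1, a factor that binds the ISRE, rose by 0.95 and 1.71. Stat2 rose by 0.61 and 1.64, Rfx5, part of the complex that NLRC5 joins, by 0.43 and 0.49, and Irf9 rose in 6694c2 by 0.84. In 6419c5 KO2, Nlrc5 (0.88, limma adjusted p = 0.00240), Irf1 (0.62, limma adjusted p = 8.32e-04), Rfx5 (0.42) and Ifngr2 (0.26) were among those called higher, and Rfxap (-0.43) was called lower.

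Of 7 tested class I-like genes outside the H2 complex, Mill2 (1.15) and Procr (0.49) were called higher in 6419c5 and Mr1 (1.04), which presents vitamin metabolites to MAIT cells, in 6694c2, with medians over the 7 of 0.43 and 0.27. Among all tested genes 3.97% were called higher in 6419c5 and 14.7% in 6694c2, so 1 of 7 in 6694c2 is near the share of all genes. In 6419c5 KO2, 2 of the 7 were called higher and 2 lower, beside 7.97% and 11% of all tested genes. Mill2 stood there at 1.12, Procr at 0.75 and Mr1 at -0.59. Of 3 tested ligands of the activating NK receptor NKG2D, limma called none in 6419c5, where each 95% interval held 0, and Raet1e (0.88, limma adjusted p = 0.0248) was called higher in 6694c2. Of 7 receptor genes for nonclassical class I, 1 was tested, Klrc1, the gene of NKG2A, which was not called in either line (-0.39 and -0.82, limma adjusted p = 0.568 and 0.0699).

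Because H2-K1 and H2-D1 rose too, each member was also set against them, as its log2(TPM + 1) minus the mean log2(TPM + 1) of H2-K1 and H2-D1. The 6 knockout and 3 WT libraries of a line were compared by an exact two-sided permutation test, for which the smallest p is 0.0238, and 10 tests were adjusted together. H2-Q4 gained on the classical genes in both lines, by 0.63 in 6419c5 and 0.66 in 6694c2 (exact permutation p = 0.0238, adjusted p = 0.0397 in each). H2-Q7 gained by 1.78 in 6694c2 (exact permutation p = 0.0238, adjusted p = 0.0397) and stood at 0.14 in 6419c5 (adjusted exact permutation p = 0.857). In 6694c2 H2-T23 fell by 1.16, H2-M3 fell by 0.88 and H2-T22 fell by 0.86 relative to the classical genes (exact permutation p = 0.0238, adjusted p = 0.0397 in each). In 6419c5 these 3 stood at -0.09, -0.28 and -0.31 (adjusted exact permutation p = 0.857, 0.442 and 0.655). The members that rose most in 6694c2, the Q genes, thus gained on H2-K1 and H2-D1, and the T genes and H2-M3 rose less than the classical pair.

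The 6419c5 values average clones that had opposite signs for every member but H2-Q4, given here with no test. H2-Q7 stood 1.44 above its WT difference from the classical genes in KO1 and at -1.16 in KO2. H2-T22 stood at -0.85 in KO1 and 0.24 in KO2, H2-T23 at -0.53 and 0.35, and H2-M3 at -0.60 and 0.050. H2-Q4 stood at 0.64 in KO1 and 0.61 in KO2, and at 0.64 and 0.68 in the clones of 6694c2, and all 3 libraries of each of the 4 clones lay above the WT of their line.

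The 6 members made up a minor share of the class I heavy chain TPM, counted as the members plus H2-K1 and H2-D1. The share was 13.2%, 13.2% and 11.9% in 6419c5 WT, 12.3%, 11.9% and 12.5% in KO1, and 16.4%, 16.9% and 15.2% in KO2. In 6694c2 the share was 20.5%, 16.0% and 20.7% in WT, 15%, 15.8% and 15.5% in KO1, and 14.7%, 15% and 15.4% in KO2. In 6694c2 every knockout library was below every WT library, by 3.82 percentage points in the mean (exact two-sided permutation p = 0.0238, adjusted p = 0.0952 over 4 tests). In 6419c5 the difference was 1.43 percentage points (exact two-sided permutation p = 0.405, adjusted p = 0.810), with KO1 near WT and KO2 above it. Neither difference passed after adjustment. In 6694c2 WT replicate 2, whose share was the lowest of its group, macrophage markers were the highest of that group (index 6.03), and their part in the share was not tested.

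**Figure D5:**
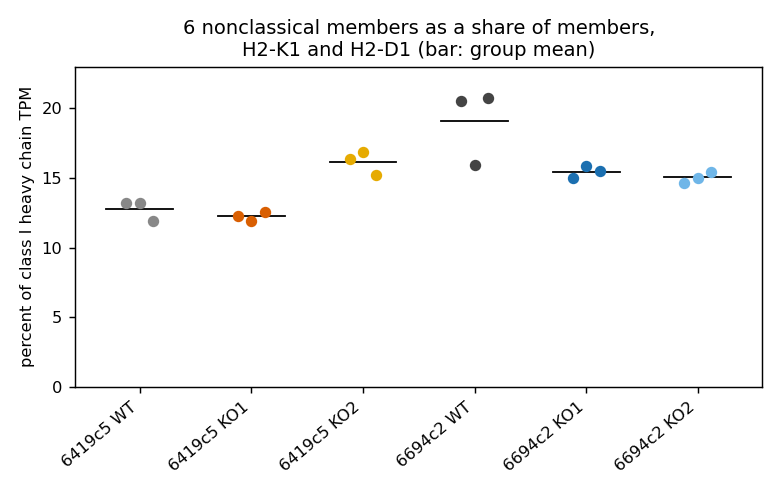
The vertical axis gives the summed TPM of the 6 members as a percentage of the members plus H2-K1 and H2-D1, with 1 point per library and a bar at the group mean. 6694c2 WT is the most spread group, from 16.0% to 20.7%, and the 4 clones lie between 11.9% and 16.9%.

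Genes with the most similar pattern were ranked by Pearson r with the mean of the members' standardised log2(TPM + 1) over the 18 libraries, which share 6 groups and are not independent points, so no p is given. Among the 10 closest were H2-K1 (0.990), Nlrc5 (0.989), Tap1 (0.987), Zbp1 (0.978), Psmb9 (0.978), Gm12250, H2-L, H2-D1 and Igtp (0.966). For single members the closest 3 were Tap1, Nlrc5 and H2-K1 for H2-Q4; H2-Q9, Csprs and H2-Q5 for H2-Q7; and Irgm2, H2-T9 and Irgm1 for H2-T22. They were Zbp1, Ciita and Ubd for H2-T23, and H2-D1, Psmb10 and Stat2 for H2-M3. H2-Q5 also shares much of the sequence of H2-Q7. H2-Q9 and H2-T9, taken as near copies of H2-Q7 and H2-T22, were not compared with them in sequence here. The part of shared reads in the likeness of these genes was not tested.

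Within groups, once each library was taken as a deviation from its group mean, the members moved together less. The pair H2-T23 and H2-M3 had r = 0.864 over the 18 libraries, and the other 9 pairs ranged from -0.14 to 0.46. H2-T23 and H2-M3 were also the members whose difference between the 6419c5 clones was near 0 once the macrophage index was a covariate. H2-Q4 and H2-Q7 differed between those clones with and without the covariate. The index was 6.50 to 8.42 in KO1 and 3.32 to 4.11 in KO2, so index and clone cannot be told apart there. The part of macrophage RNA in these patterns was not tested.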

How the data were processed

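RNA of sorted tumor cells was measured in 18 libraries in 6 groups of 3. The authors deposited 1 table of TPM values per gene, made with Salmon on mm10, per the submitters' processing notes. Depth, strand setting and how transcripts were summed to genes are not given in the sources used here. The table's name refers to a batch of which nothing more is stated, so an adjustment for it is unknown. Near-identical copies make Salmon's split among rows uncertain. Groups came from the sample titles. The members and lists were chosen with earlier results of these data known.

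Values were taken as log2(TPM + 1). Of 24493 genes, 13422 whose mean reached 1 TPM were tested in 1 limma fit (version 3.58.1, R 4.3.3) of the 6 group means with 12 residual degrees of freedom, intensity trend and Benjamini-Hochberg adjustment, called under 0.05. H2-Q7 exceeded 1 TPM in every library, so its passing did not rest on the groups where it is high. On simulated data for the 13422 genes, 82% of genes changed by a fold of 2 and 97% changed by 4 were recovered in 6419c5, and 83% and 91% in 6694c2. The simulation gave both clones of a line the same change, with independent noise per library. It therefore does not cover genes whose clones differ, such as H2-Q7 in 6419c5. Shares and ratios were tested by exact two-sided permutation (scipy 1.17.1). Sequences came from RefSeq (GRCm38.p6) and GENCODE M21 (Biopython 1.88), and figures from matplotlib 3.10.9.

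The text names all 6 members, up to 4 genes of each list with the largest called change, H2-K1, H2-D1, B2m, Nlrc5, Irf1 and Kdm3a, the 10 genes closest to the mean of the members and the 3 closest to each. An item that this rule names is not reported here. Near copies of members (H2-Q5, H2-Q8, H2-Q9, H2-T9, H2-T10) and further list genes with their values were named after those were seen. Alternatives were the pseudocount, the filter, scaling, a replicate block, the macrophage index as covariate, single lines and left-out libraries. Sums of near copies and ratios to H2-K1 and H2-D1 were added after seeing the data.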

Additional observations from a re-analysis of the deposited data

Results flagged for a closer look

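The knockout effect differed between the lines for 3 members by the interaction term of the limma fit. It was larger in 6694c2 than in 6419c5 by 2.99 for H2-Q7, by 1.39 for H2-Q4 and by 0.80 for H2-T22 on the log2(TPM + 1) scale. For H2-Q7 and H2-Q4 the difference was called under each of the 28 alternatives tried, and for H2-T22 it was lost under 6 of them. In 6419c5 the clones stood far apart for H2-Q7 (3.62 in KO1 and -0.58 in KO2), so the difference between lines holds the difference between those clones.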

How the results depend on the processing

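Up to 29 alternatives were run for each result except the ratios to H2-K1 and H2-D1, for which no alternative was run. In both knockout means, both KO1 clones and 6694c2 KO2, every tested member was called higher in each of the 29, and in 6419c5 KO2 so were H2-Q4 (1.0 to 1.56), H2-T22 (0.70 to 0.97) and H2-T23 (0.79 to 1.45). Without the 3 libraries that stand apart, 765 genes were called for the difference between lines, against 1169. Depth is unknown, and at the few TPM of H2-Q6 and H2-Q7 in WT the assignment among copies limits the values. The causes of the changes below were not tested.

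Median-of-ratios scaling called 3 members between the 6419c5 clones, against 5, and 1 between the WT groups, against 3, where quantile normalization and the macrophage covariate also called 1. The covariate called 2 members between the 6419c5 clones and 1 between the 6694c2 clones, against 0. Over all genes it called 1498 in 6419c5, against 990, and 1864 in 6694c2 KO1, against 2913, with 1333 between the 6419c5 clones, against 3534, and 360 between the 6694c2 clones, against 1279. A fit of 6694c2 alone called 544 between those clones.

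Signs turned where values lay near 0. H2-M3 between the 6694c2 clones stood at -0.021 under median-of-ratios scaling, -0.041 under quantile normalization and -0.049 without the 3 libraries. Between WT groups H2-T23 stood at 0.027 under median-of-ratios scaling and 0.19 with the covariate, and H2-Q7 at 0.17 under quantile normalization. H2-T23 differed between lines by -0.18 with the covariate. The sum of H2-Q6 and H2-Q7 stood between WT groups at 0.048 under median-of-ratios scaling, 0.32 under quantile normalization and 0.12 with the covariate, and at 0.024 between the 6694c2 clones with the covariate. The sum of H2-Q6 to H2-Q9 in 6419c5 KO2 stood at 0.050 under quantile normalization, 0.32 with the covariate and 0.078 without the 3 libraries.

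Leaving out single libraries gave 752 to 1252 genes for the difference between lines, the lowest without 6419c5 WT replicate 3. It gave 421 to 746 in 6419c5 KO1, against 643, the lowest without 6419c5 KO1 replicate 3. It gave 1630 to 2949 in 6419c5 KO2, against 2540, the lowest without 6419c5 KO2 replicate 1. In 6694c2 KO2 it gave 1147 to 2588, against 1949, the lowest without 6694c2 KO2 replicate 2, and 1167 without replicate 1. Between the 6694c2 clones it gave 342 to 1857, the extremes without 6694c2 KO2 replicates 2 and 3, and 343, 669 and 557 without 6694c2 KO2 replicate 1 and KO1 replicates 2 and 3. Members called between the 6419c5 clones numbered 2 to 5, the lowest without 6419c5 KO1 replicate 2. H2-M3 between the 6694c2 clones ranged from -0.088 to 0.13, H2-Q6 plus H2-Q7 from -0.056 to 0.41 in 6419c5 KO2 and from -0.37 to 0.086 between WT groups, and the sum of H2-Q6 to H2-Q9 in 6419c5 KO2 from -0.39 to 0.12. The share of members in 6694c2 differed by -5.38 to -2.99 percentage points, and by -3.81 without the 3 libraries. Their exact permutation p of 0.0714 and 0.0571 were the smallest these designs allow, so they say nothing of stability.

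The replicate numbers did not pair the libraries: deviations of same-numbered libraries correlated above 0.1 in 5 of 18 pairs of libraries, from -0.378 to 0.481. With the replicate block 930 genes were called in 6419c5, 2530 in 6694c2 and 1043 for the difference between lines. H2-Q7 in 6419c5 KO2 was then called lower (-0.58, limma adjusted p = 0.0319), and no other call of a member changed.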
